A study of Mus musculus with 12 samples.

Results

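The genes followed here are 45 that act in G2 and mitosis, from the kinase and cyclins that start division to the proteins that cut the daughter cells apart. They form a named list, set by function but with earlier results of these data known, among the 24346 gene symbols measured in marginal zone B cells with and without the cation channel gene Trpm5. All 45 were measured, and all 45 passed the filter of at least 1 FPKM in at least 2 libraries, which 10797 symbols passed in all. FPKM counts sequenced fragments, scaled by transcript length and by library size. Of the 45, 40 reached 1 FPKM in all 12 libraries, and 16 averaged under 5 FPKM.

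Mitosis genes are switched on late in the cell cycle. In resting cells the DREAM complex, which holds the MuvB core, keeps them silent, and in cycling cells MuvB works with B-MYB and then FOXM1 to activate them. A pair of short promoter elements recurs among them, the cell cycle homology region, which MuvB binds, and the CCAAT box bound by NF-Y. Marginal zone B cells, which line the marginal sinus of the spleen, are mostly noncycling but poised to respond fast to blood-borne antigens and to bacterial lipopolysaccharide.

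The groups were mouse Trpm5-/- marginal zone B cells with LPS, with anti-IgM antibody and unstimulated, and wild-type marginal zone B cells in the same 3 conditions, with 2 libraries per group and 12 in all. LPS was given at 10 µg/mL, anti-IgM at 10 µg/mL, and all cells were kept for 4 h. LPS acts through Toll-like receptor 4, anti-IgM clusters the antigen receptor, and the series asks how the channel shapes these responses. Age, strain background and the deleted part of Trpm5 are not in the labels used here, nor do these labels tell if a group's libraries represent different mice or cultures. The p-values therefore rest on a spread between libraries that may be only technical. The deletion check rested on few fragments: Trpm5 (chromosome 7, 143069153 to 143094642, mm10) read 0 and 0.0303 FPKM in Trpm5-/- cells, against 0.434 and 0.321 FPKM in wild-type cells, with LPS. Under anti-IgM Trpm5 read 0 and 0 FPKM in Trpm5-/- cells, against 0.059 and 0.0241 FPKM in wild-type cells, and unstimulated 0.0236 and 0.0184 FPKM in Trpm5-/- cells, against 0.0196 and 0.21 FPKM in wild-type cells. In unstimulated cells the genotypes overlapped, since 1 wild-type value lay between the Trpm5-/- values. In fragments this was 3 over the 6 Trpm5-/- libraries and 40 over the 6 wild-type libraries.

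The factor by which fragments of a library were scaled was judged from the steps between low FPKM values. It was 0.645 to 1.06 times that of library 1 of the wild-type unstimulated group. Summed FPKM ran from 5.63e+05 (wild-type unstimulated library 2) to 8.05e+05 (Trpm5-/- LPS library 1), so this factor need not equal the total of fragments sequenced. Whole fragment numbers could be recovered for 32 of the 45 mitosis genes, with 17 to 1574 fragments per gene and library and a median of 180.5. Only 4 of those 384 values were under 25 fragments, and they belonged to 3 genes, Melk, Ndc80 and Anln. Values were compared as log2(FPKM + 1) with limma over all 10797 genes, all differences below are on that scale with their standard error, and called genes are those with an adjusted p (Benjamini-Hochberg) under 0.05. The scale understates the change of genes of low FPKM. RNA was measured in bulk, so a larger share of dividing cells and more mitosis RNA per cell cannot be told apart.

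The promoters show what the genes share in sequence. RefSeq promoter windows (GRCm38.p6, 250 bases before to 50 after the transcription start) were at hand for 38 of the 45 genes, in 40 windows, and were searched on both strands. The first motif was the core of the cell cycle homology region (CHR), spelled TTTGAA, and the other was the NF-Y box, spelled CCAAT. The CHR core stood in the windows of 27 of 38 mitosis genes (71.1%), against 5466 of 27025 genes in the whole table (20.2%) and 14.2% of the 8231 tested genes with a window. The NF-Y box stood in 28 of 38 (73.7%), against 41.1% of all genes and 43.6% of tested genes. Both were present in 24 of 38 (63.2%), against 7.97% of all genes and 5.83% of tested genes, and 7 mitosis genes had neither. Of 71 further mitosis genes with a window, 53.5% had the CHR core, 69.0% the NF-Y box and 39.4% both. For DNA replication genes the shares were 17.8%, 62.2% and 8.89%, so the NF-Y box was common in these lists too. In 24 of the 27 genes with the CHR core a match began within 50 bases of the start. Ccna2, Cdca2, Spc24, Tpx2, Kif20a, Aurkb and Pbk had no entry.

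The promoters of 6 genes are given because their levels mark the range of behaviour described below. Ccnb2 at chr9:70421505-70421804 (minus strand) changed most with stimulation among the cyclins. Top2a at chr11:99024140-99024439 (minus strand) and Ube2c at chr2:164769679-164769978 (plus strand) were called between genotypes in every condition. Cenpa at chr5:30666636-30666935 (plus strand) was called in both stimulated conditions, and unstimulated it was higher in Trpm5-/- cells without a call. Ndc80 at chr17:71526808-71527107 (minus strand) was called in no genotype difference, and Cks2 at chr13:51644982-51645281 (plus strand) rose with LPS. Capitals mark the CHR core and the NF-Y box on either strand, and the letters run 5′ to 3′ along the gene's strand.
Ccnb2: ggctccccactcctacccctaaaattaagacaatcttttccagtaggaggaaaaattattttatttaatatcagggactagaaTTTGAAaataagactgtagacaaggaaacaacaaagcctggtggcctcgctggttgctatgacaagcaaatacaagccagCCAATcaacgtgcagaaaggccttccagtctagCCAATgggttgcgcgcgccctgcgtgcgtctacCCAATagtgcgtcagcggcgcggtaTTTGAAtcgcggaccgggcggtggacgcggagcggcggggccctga
Top2a: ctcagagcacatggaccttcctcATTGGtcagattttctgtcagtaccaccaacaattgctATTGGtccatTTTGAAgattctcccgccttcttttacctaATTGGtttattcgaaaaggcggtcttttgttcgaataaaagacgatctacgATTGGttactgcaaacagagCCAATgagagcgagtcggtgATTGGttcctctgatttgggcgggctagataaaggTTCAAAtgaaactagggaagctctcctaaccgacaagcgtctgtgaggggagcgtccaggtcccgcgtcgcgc
Ube2c: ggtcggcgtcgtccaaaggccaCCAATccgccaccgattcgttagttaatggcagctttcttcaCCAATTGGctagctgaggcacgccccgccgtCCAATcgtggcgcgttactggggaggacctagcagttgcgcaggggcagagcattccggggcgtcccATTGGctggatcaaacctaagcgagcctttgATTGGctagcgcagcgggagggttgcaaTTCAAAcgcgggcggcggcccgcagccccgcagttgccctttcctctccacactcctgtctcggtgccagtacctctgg
Cenpa: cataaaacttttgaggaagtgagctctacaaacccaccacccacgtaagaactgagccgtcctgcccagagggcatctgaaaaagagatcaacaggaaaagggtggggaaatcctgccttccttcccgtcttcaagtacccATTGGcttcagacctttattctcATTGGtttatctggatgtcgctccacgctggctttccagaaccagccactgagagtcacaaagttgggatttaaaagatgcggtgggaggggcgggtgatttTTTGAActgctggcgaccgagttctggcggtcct
Ndc80: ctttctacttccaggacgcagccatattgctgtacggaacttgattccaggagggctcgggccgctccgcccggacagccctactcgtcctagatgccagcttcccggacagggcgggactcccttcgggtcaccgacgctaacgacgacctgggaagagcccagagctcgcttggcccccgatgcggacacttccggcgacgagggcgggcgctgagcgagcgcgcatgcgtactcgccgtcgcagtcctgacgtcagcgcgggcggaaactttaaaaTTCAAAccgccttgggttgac
Cks2: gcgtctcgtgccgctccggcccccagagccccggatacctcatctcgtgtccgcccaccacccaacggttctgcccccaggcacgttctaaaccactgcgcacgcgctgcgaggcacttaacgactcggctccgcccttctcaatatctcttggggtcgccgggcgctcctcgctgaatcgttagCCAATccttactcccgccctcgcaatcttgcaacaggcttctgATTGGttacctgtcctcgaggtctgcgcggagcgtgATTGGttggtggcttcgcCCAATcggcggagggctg
The Ccnb2 window held the CHR core at 2 positions and the NF-Y box at 3, the Top2a window held them at 2 and 6 positions, the Ube2c window at 1 and 6, and the Cenpa window at 1 and 2. The Ndc80 window had 1 CHR core and no NF-Y box, and the Cks2 window had 4 NF-Y boxes and no CHR core. Of the 24 genes with both motifs 17 were called higher in Trpm5-/- cells on average over conditions, and of the other 14 genes with a window 11 were.

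**Figure D1:**
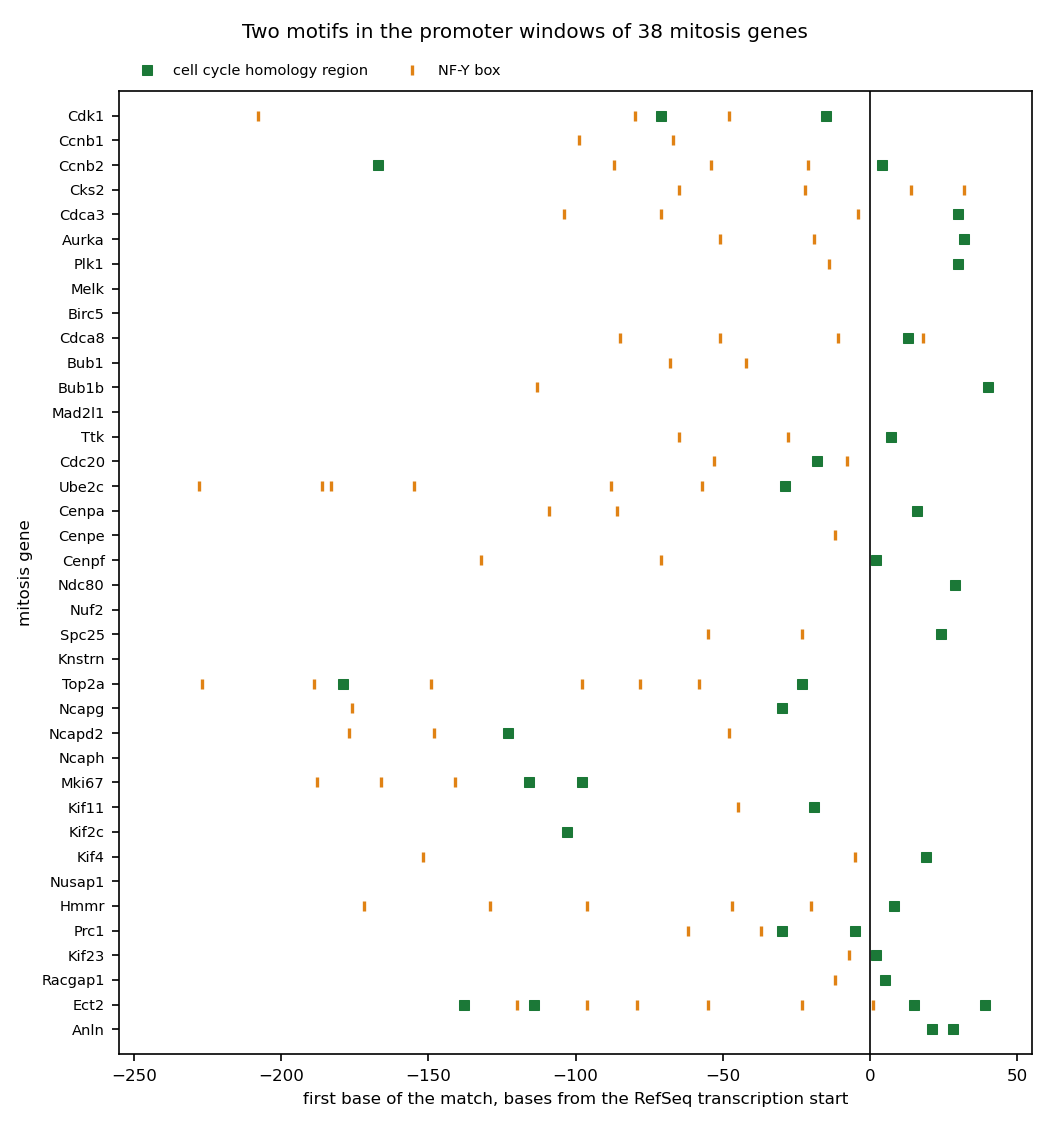
Positions of the cell cycle homology region core and of the NF-Y box in the promoter windows of 38 mitosis genes, as bases from the RefSeq start (x axis, 250 bases before to 50 after) for each gene (y axis). The green squares gather around the start, where 24 genes have a match within 50 bases, and the orange ticks lie mostly before it.

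Trpm5-/- cells held more mitosis RNA than wild-type cells in all 3 conditions. The FPKM of the 45 genes summed to 626 and 594 in Trpm5-/- cells with LPS, against 497 and 500 in wild-type cells with LPS. The sums with anti-IgM were 616 and 560 in Trpm5-/- cells and 429 and 382 in wild-type cells, and unstimulated they were 833 and 836 in Trpm5-/- cells and 560 and 520 in wild-type cells. The sums did not overlap between genotypes in any condition, nor did they without Cks2, the most abundant of the genes. This was not particular to the 45 genes. Sums of the further mitosis genes and of the DNA replication genes described below were also higher in Trpm5-/- cells without overlap in every condition. With LPS the replication sums were 1793 and 1802 in Trpm5-/- cells and 1508 and 1578 in wild-type cells. Some marker lists described below were apart as well, in either direction.

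By gene, 8 of 45 were called higher in Trpm5-/- cells and none lower with LPS, where 1.82% of all tested genes were called higher and 1.78% lower. With anti-IgM the counts were 7 higher and none lower (1.91% of all genes called higher and 1.92% lower), and unstimulated 19 higher and none lower (4.45% and 1.66%). In the difference averaged over conditions 35 of 45 were called higher and none lower, against 10.2% of all genes called higher and 5.88% lower. Median log2 differences over the 45 genes were 0.35 with LPS, 0.48 with anti-IgM and 0.63 unstimulated, where the medians of all genes were 0.02, -0.00 and 0.02. Both Trpm5-/- libraries lay above both wild-type ones for 30 of 45 genes with LPS (26.5% of all genes), 36 with anti-IgM (25.8%) and 42 unstimulated (28.1%), and for 23 in all 3 conditions (7.47%). The reverse held for 1 gene with LPS, where it held for 19.3% of all genes. No mitosis gene was lower in Trpm5-/- cells at an unadjusted p under 0.05 by limma in any condition, and no other tool was run. Ube2c and Top2a were called in all 3 conditions, and 7 other genes in a pair of them. The share of all genes called in several conditions is not given here. The tests of a gene in the 3 conditions share 1 estimate of its spread.

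The counts within single conditions leaned on single libraries. Unstimulated, 4 and 7 genes were called without Trpm5-/- unstimulated library 1 and 2, and 7 and 6 without wild-type unstimulated library 1 and 2. With LPS, 1 and 3 were called without Trpm5-/- LPS library 1 and 2, none and 1 without wild-type LPS library 1 and 2, and 5 without either Trpm5-/- unstimulated library. With anti-IgM, 1 and 4 were called without Trpm5-/- anti-IgM library 1 and 2, and 2 without wild-type anti-IgM library 2. The average difference called 28 to 34 genes with any 1 library left out, and 27 of its 35 calls held under every alternative run. Of the single-condition calls, Pbk alone held under every alternative, with anti-IgM and unstimulated, and none of the 8 calls with LPS did.

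**Figure D2:**
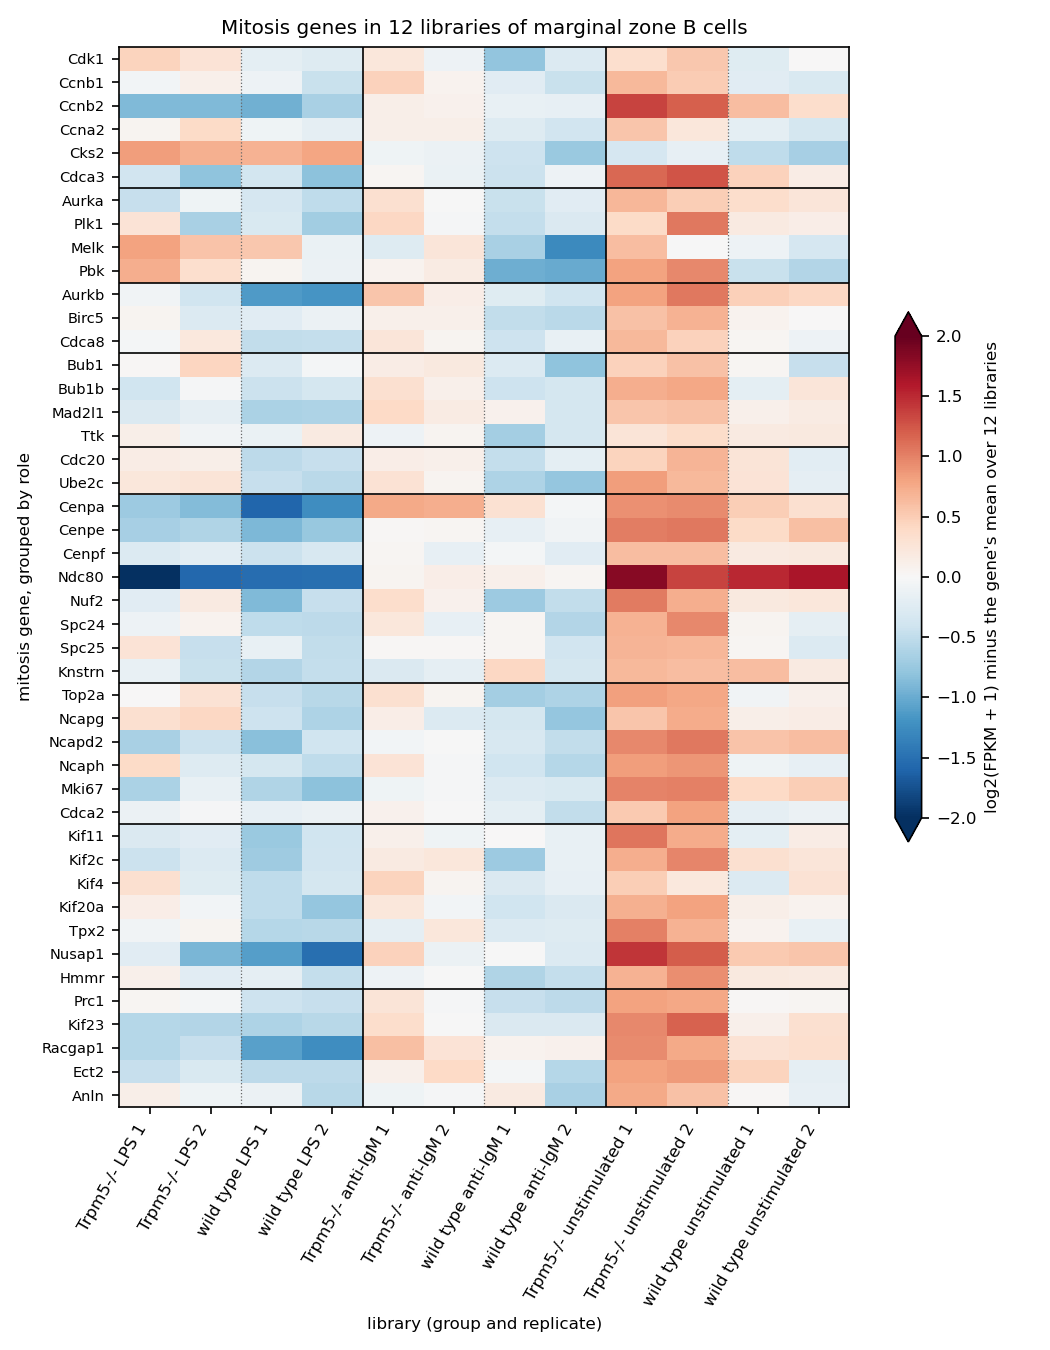
Level of 45 mitosis genes (rows, by role, separated by lines) in 12 libraries (columns) as log2(FPKM + 1) minus the mean of the gene over all libraries, red above and blue below it. The Trpm5-/- unstimulated columns are the reddest, with summed FPKM of 833 and 836, and the wild-type columns are bluer than the Trpm5-/- columns of the same condition.

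**Figure D3:**
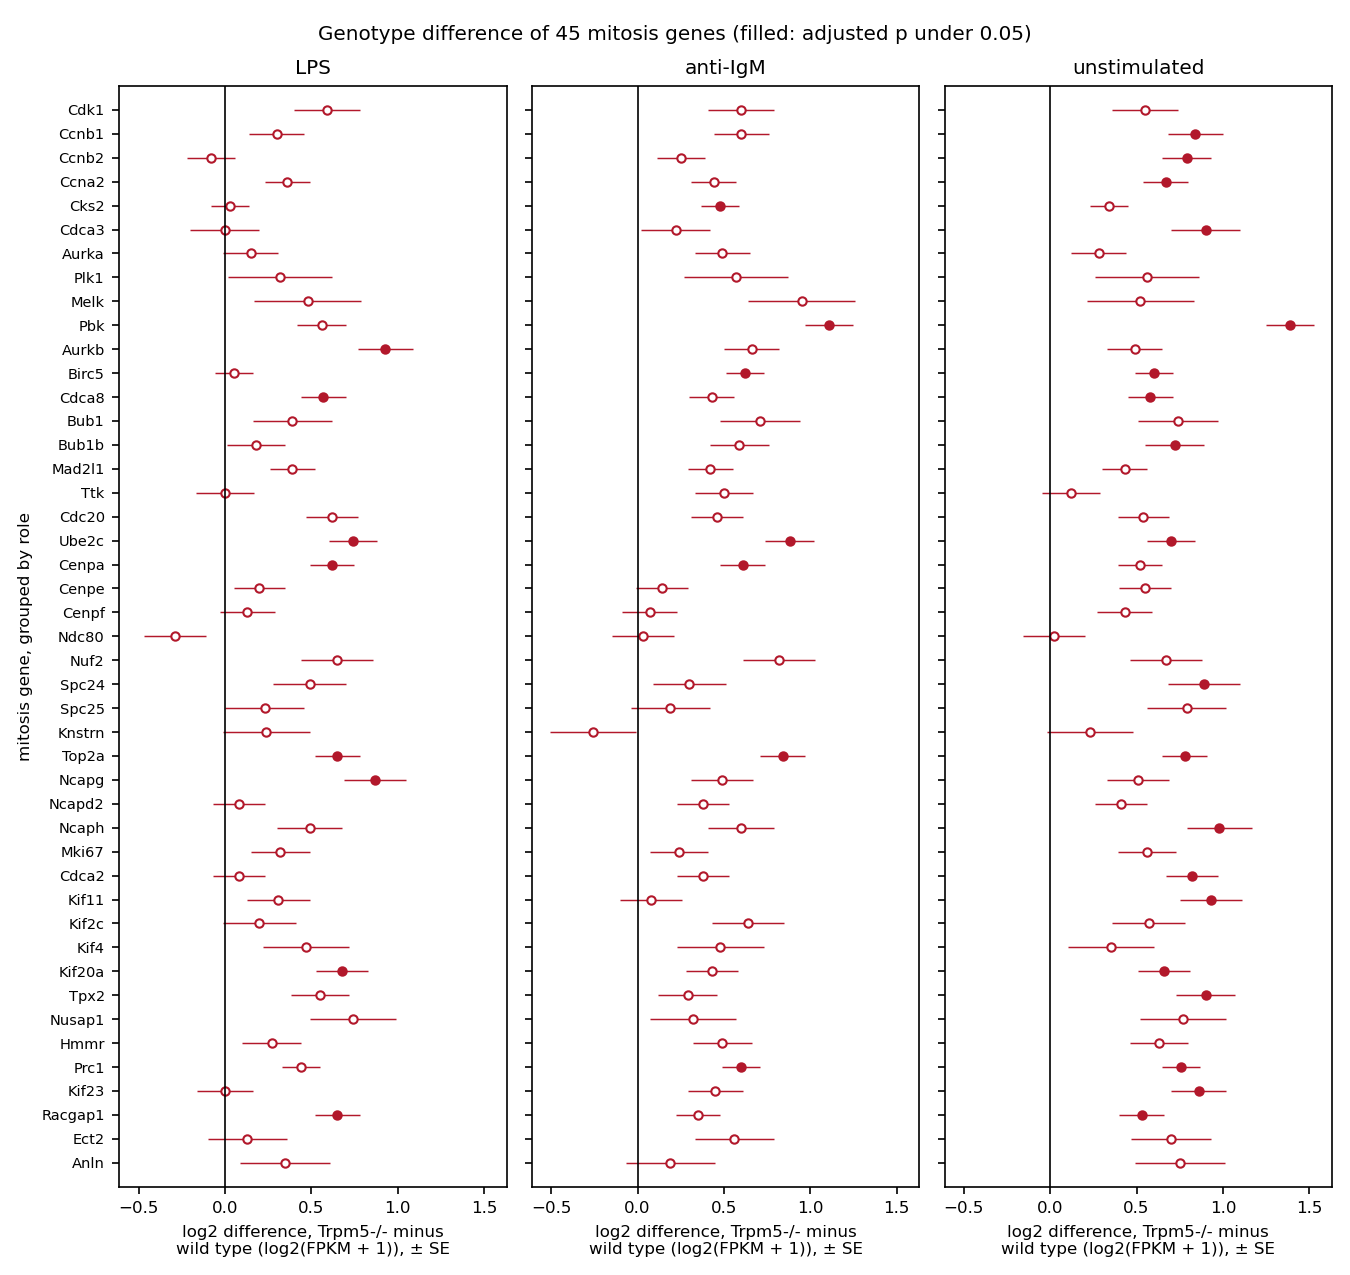
Log2 difference, Trpm5-/- minus wild type, of each mitosis gene (rows) with LPS, with anti-IgM and unstimulated, with the standard error of the limma fit as bars and called genes filled. The 8, 7 and 19 filled points all lie right of 0.

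Among the 6 genes of mitotic entry, 5 were called higher in Trpm5-/- cells on average over conditions. Unstimulated 4 were called and with anti-IgM 1, while with LPS limma called none and 2 had an unadjusted p under 0.05. The share of all genes with such an unadjusted p is not given here. Cdk1, the kinase that drives cells into mitosis, read 11.4 and 10.0 FPKM in Trpm5-/- cells, against 6.96 and 6.62 FPKM in wild-type cells, with LPS. Anti-IgM gave Cdk1 values of 9.63 and 7.48 FPKM in Trpm5-/- cells, against 4.23 and 6.53 FPKM in wild-type cells. Unstimulated, Cdk1 stood at 10.4 and 12.2 FPKM in Trpm5-/- cells, against 6.65 and 8.15 FPKM in wild-type cells. Cdk1 was higher in both Trpm5-/- libraries than in either wild-type library in all 3 conditions. Cdk1 gave a log2 difference of 0.58 ± 0.11 (limma adjusted p = 0.00556), averaged over the conditions. With LPS Ccnb1, the main B-type cyclin that activates it, stood at 17.5 and 19.7 FPKM in Trpm5-/- cells, against 17 and 13.1 FPKM in wild-type cells. After anti-IgM treatment Ccnb1 read 25.5 and 19.2 FPKM in Trpm5-/- cells, against 15.5 and 13.1 FPKM in wild-type cells. Without stimulus Ccnb1 read 29 and 26.2 FPKM in Trpm5-/- cells, against 15.4 and 14.6 FPKM in wild-type cells. No wild-type Ccnb1 value reached a Trpm5-/- value of the same condition. Ccnb1 rose by 0.58 ± 0.09 (limma adjusted p = 0.00199) on the log2 scale, averaged over conditions. Ccnb1 also passed under unstimulated conditions (0.84 ± 0.16, limma adjusted p = 0.0142). The level of Ccnb2, the other mitotic B-type cyclin, was 4.65 and 4.65 FPKM in Trpm5-/- cells, against 4.35 and 5.67 FPKM in wild-type cells, after LPS. After anti-IgM Ccnb2 was at 10.3 and 10.1 FPKM in Trpm5-/- cells, against 8.41 and 8.38 FPKM in wild-type cells, and unstimulated at 25.6 and 23.1 FPKM in Trpm5-/- cells, against 15.1 and 12.3 FPKM in wild-type cells. The Ccnb2 values overlapped between genotypes under LPS and were higher in Trpm5-/- cells under anti-IgM and unstimulated conditions. Ccnb2 averaged a log2 difference of 0.32 ± 0.08 (limma adjusted p = 0.0195). Taken alone, unstimulated conditions (0.79 ± 0.14, limma adjusted p = 0.0106) showed a called Ccnb2 difference. LPS-treated cells gave Ccna2, the cyclin of S phase and G2, values of 28.6 and 36.1 FPKM in Trpm5-/- cells, against 25.7 and 24.2 FPKM in wild-type cells. Under anti-IgM Ccna2 read 29.9 and 29.7 FPKM in Trpm5-/- cells, against 22.7 and 20.8 FPKM in wild-type cells. In unstimulated cells Ccna2 read 40.8 and 32.4 FPKM in Trpm5-/- cells, against 23.7 and 21.2 FPKM in wild-type cells. In each condition both Ccna2 values of Trpm5-/- cells lay above both of wild-type cells. For Ccna2 the log2 difference averaged 0.49 ± 0.07 (limma adjusted p = 0.00174). Ccna2 was called under unstimulated conditions (0.67 ± 0.13, limma adjusted p = 0.0158). Cks2, a small subunit that helps Cdk1 bind its substrates, read 246 and 225 FPKM in Trpm5-/- cells, against 223 and 238 FPKM in wild-type cells, with LPS. Anti-IgM gave Cks2 values of 129 and 127 FPKM in Trpm5-/- cells, against 103 and 81.4 FPKM in wild-type cells. Unstimulated, Cks2 stood at 108 and 122 FPKM in Trpm5-/- cells, against 96 and 86.2 FPKM in wild-type cells. Cks2 values of the genotypes were apart under anti-IgM and unstimulated conditions and overlapped under LPS. Cks2 gave a log2 difference of 0.28 ± 0.06 (limma adjusted p = 0.0114), averaged over the conditions. Within single conditions Cks2 passed the test under anti-IgM (0.48 ± 0.11, limma adjusted p = 0.0347). With LPS Cdca3, which promotes removal of the Cdk1 inhibitor Wee1, stood at 6.61 and 4.65 FPKM in Trpm5-/- cells, against 6.7 and 4.57 FPKM in wild-type cells. After anti-IgM treatment Cdca3 read 9.12 and 7.98 FPKM in Trpm5-/- cells, against 6.35 and 8.18 FPKM in wild-type cells. Without stimulus Cdca3 read 20.8 and 22.7 FPKM in Trpm5-/- cells, against 12.6 and 9.98 FPKM in wild-type cells. The genotypes' Cdca3 values overlapped under LPS and anti-IgM and not under unstimulated conditions, where both Trpm5-/- values were higher. The average log2 difference of Cdca3, 0.37 ± 0.12 (limma adjusted p = 0.0568), was not called. It was called under unstimulated conditions (0.90 ± 0.20, limma adjusted p = 0.0307).

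Of the 4 other mitotic kinases, Pbk and Melk were called on average, and Aurka and Plk1 were not. The level of Pbk, a kinase active in mitosis and made by dividing lymphoid cells, was 13.6 and 10.2 FPKM in Trpm5-/- cells, against 8.23 and 7.21 FPKM in wild-type cells, after LPS. After anti-IgM Pbk was at 8.35 and 8.97 FPKM in Trpm5-/- cells, against 3.51 and 3.43 FPKM in wild-type cells, and unstimulated at 14.5 and 16.2 FPKM in Trpm5-/- cells, against 5.51 and 4.93 FPKM in wild-type cells. The Pbk values of the genotypes did not overlap in any condition. Pbk averaged a log2 difference of 1.02 ± 0.08 (limma adjusted p = 3.72e-05). Taken alone, anti-IgM (1.11 ± 0.14, limma adjusted p = 0.00241) and unstimulated conditions (1.39 ± 0.14, limma adjusted p = 0.000824) showed a called Pbk difference. LPS-treated cells gave Melk, a kinase whose RNA peaks in G2 and mitosis, values of 5.85 and 4.82 FPKM in Trpm5-/- cells, against 4.73 and 2.57 FPKM in wild-type cells. Under anti-IgM Melk read 2.28 and 3.65 FPKM in Trpm5-/- cells, against 1.5 and 0.632 FPKM in wild-type cells. In unstimulated cells Melk read 5 and 2.9 FPKM in Trpm5-/- cells, against 2.66 and 2.13 FPKM in wild-type cells. In each condition both Melk values of Trpm5-/- cells lay above both of wild-type cells. For Melk the log2 difference averaged 0.65 ± 0.18 (limma adjusted p = 0.0330). Pbk had the largest log2 difference of the 45 genes with anti-IgM, unstimulated and on average. It kept its calls with anti-IgM, unstimulated and on average under all alternatives run. Aurka, which matures the centrosomes, ran from 5.85 to 14.4 FPKM over the 12 libraries, and its average log2 difference was 0.31 ± 0.09 (limma adjusted p = 0.0525). Plk1, a kinase needed from mitotic entry to exit, ran from 4.52 to 17.5 FPKM with a log2 difference of 0.48 ± 0.18 (limma adjusted p = 0.0947).

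The 3 genes of the chromosomal passenger complex among the 45, a complex that corrects faulty spindle attachments, were all called higher in Trpm5-/- cells on average. Aurkb, its kinase, read 12.4 and 9.63 FPKM in Trpm5-/- cells, against 5.38 and 5.16 FPKM in wild-type cells, with LPS. Anti-IgM gave Aurkb values of 19.6 and 14.3 FPKM in Trpm5-/- cells, against 10.9 and 9.61 FPKM in wild-type cells. Unstimulated, Aurkb stood at 23.4 and 28.2 FPKM in Trpm5-/- cells, against 18.5 and 17.6 FPKM in wild-type cells. Aurkb was higher in both Trpm5-/- libraries than in either wild-type library in all 3 conditions. Aurkb gave a log2 difference of 0.69 ± 0.09 (limma adjusted p = 0.000999), averaged over the conditions. Within single conditions Aurkb passed the test under LPS (0.93 ± 0.16, limma adjusted p = 0.0127). With LPS Birc5, its survivin subunit, stood at 21.7 and 17 FPKM in Trpm5-/- cells, against 17.7 and 19.2 FPKM in wild-type cells. After anti-IgM treatment Birc5 read 22.5 and 22.5 FPKM in Trpm5-/- cells, against 14.5 and 14.1 FPKM in wild-type cells. Without stimulus Birc5 read 31.7 and 34.4 FPKM in Trpm5-/- cells, against 22 and 21 FPKM in wild-type cells. Both Trpm5-/- Birc5 values lay above both wild-type ones under anti-IgM and unstimulated conditions, while the genotypes overlapped under LPS. Birc5 rose by 0.42 ± 0.06 (limma adjusted p = 0.00157) on the log2 scale, averaged over conditions. Birc5 also passed under anti-IgM (0.62 ± 0.11, limma adjusted p = 0.0120) and unstimulated conditions (0.60 ± 0.11, limma adjusted p = 0.0130). The level of Cdca8, its borealin subunit, was 14.4 and 17.3 FPKM in Trpm5-/- cells, against 10.3 and 10.4 FPKM in wild-type cells, after LPS. After anti-IgM Cdca8 was at 17.8 and 15.4 FPKM in Trpm5-/- cells, against 10.9 and 13.3 FPKM in wild-type cells, and unstimulated at 23.7 and 20.9 FPKM in Trpm5-/- cells, against 15.3 and 13.7 FPKM in wild-type cells. The Cdca8 values of the genotypes did not overlap in any condition. Cdca8 averaged a log2 difference of 0.53 ± 0.07 (limma adjusted p = 0.00126). Taken alone, LPS (0.57 ± 0.13, limma adjusted p = 0.0416) and unstimulated conditions (0.58 ± 0.13, limma adjusted p = 0.0283) showed a called Cdca8 difference.

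Of the 4 spindle checkpoint genes, which hold back anaphase until all chromosomes are attached, 3 were called on average. LPS-treated cells gave Bub1, a checkpoint kinase at the kinetochore, values of 3.15 and 4.51 FPKM in Trpm5-/- cells, against 2.37 and 2.95 FPKM in wild-type cells. Under anti-IgM Bub1 read 3.5 and 3.67 FPKM in Trpm5-/- cells, against 2.36 and 1.34 FPKM in wild-type cells. In unstimulated cells Bub1 read 4.59 and 5.11 FPKM in Trpm5-/- cells, against 3.17 and 1.95 FPKM in wild-type cells. In each condition both Bub1 values of Trpm5-/- cells lay above both of wild-type cells. For Bub1 the log2 difference averaged 0.61 ± 0.13 (limma adjusted p = 0.0116). Bub1b, which encodes the checkpoint protein BUBR1, read 6.79 and 9.11 FPKM in Trpm5-/- cells, against 6.66 and 7.04 FPKM in wild-type cells, with LPS. Anti-IgM gave Bub1b values of 11.9 and 10.0 FPKM in Trpm5-/- cells, against 6.72 and 7.09 FPKM in wild-type cells. Unstimulated, Bub1b stood at 16 and 16.6 FPKM in Trpm5-/- cells, against 8 and 11.2 FPKM in wild-type cells. Bub1b values of the genotypes were apart under anti-IgM and unstimulated conditions and overlapped under LPS. Bub1b gave a log2 difference of 0.50 ± 0.10 (limma adjusted p = 0.00662), averaged over the conditions. Within single conditions Bub1b passed the test under unstimulated conditions (0.72 ± 0.17, limma adjusted p = 0.0332). With LPS Mad2l1, which encodes the Cdc20 inhibitor MAD2, stood at 15 and 16.3 FPKM in Trpm5-/- cells, against 11.6 and 11.7 FPKM in wild-type cells. After anti-IgM treatment Mad2l1 read 24.9 and 20.9 FPKM in Trpm5-/- cells, against 19.8 and 14.3 FPKM in wild-type cells. Without stimulus Mad2l1 read 27.7 and 28.3 FPKM in Trpm5-/- cells, against 20.0 and 21 FPKM in wild-type cells. No wild-type Mad2l1 value reached a Trpm5-/- value of the same condition. Mad2l1 rose by 0.41 ± 0.08 (limma adjusted p = 0.00566) on the log2 scale, averaged over conditions. Ttk, the kinase that starts the checkpoint, ran from 0.975 to 3.06 FPKM over the 12 libraries and was not called (average log2 difference 0.20 ± 0.10, limma adjusted p = 0.204).

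Both partners of the anaphase-promoting complex, the ubiquitin ligase that ends mitosis, were called on average. The level of Cdc20, its activator in metaphase, was 21.2 and 20.7 FPKM in Trpm5-/- cells, against 13 and 13.6 FPKM in wild-type cells, after LPS. After anti-IgM Cdc20 was at 21.1 and 20.5 FPKM in Trpm5-/- cells, against 13.4 and 16.5 FPKM in wild-type cells, and unstimulated at 26.2 and 31 FPKM in Trpm5-/- cells, against 22.9 and 16.4 FPKM in wild-type cells. The Cdc20 values of the genotypes did not overlap in any condition. Cdc20 averaged a log2 difference of 0.54 ± 0.09 (limma adjusted p = 0.00254). LPS-treated cells gave Ube2c, its ubiquitin-conjugating enzyme, values of 34.2 and 35.2 FPKM in Trpm5-/- cells, against 20.9 and 19.7 FPKM in wild-type cells. Under anti-IgM Ube2c read 35.8 and 30.4 FPKM in Trpm5-/- cells, against 18.6 and 16.6 FPKM in wild-type cells. In unstimulated cells Ube2c read 52.6 and 46.5 FPKM in Trpm5-/- cells, against 35.4 and 25.7 FPKM in wild-type cells. In each condition both Ube2c values of Trpm5-/- cells lay above both of wild-type cells. For Ube2c the log2 difference averaged 0.77 ± 0.08 (limma adjusted p = 0.000188). Ube2c was called under LPS (0.74 ± 0.14, limma adjusted p = 0.0170) and anti-IgM (0.88 ± 0.14, limma adjusted p = 0.00797) and unstimulated conditions (0.70 ± 0.14, limma adjusted p = 0.0186).

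Centromere and kinetochore genes had the lowest median difference between genotypes of the 9 roles. Of 8, 4 were called higher on average, and the median log2 difference on average was 0.35. Cenpa, the histone H3 variant that marks centromeres, read 14.2 and 12.8 FPKM in Trpm5-/- cells, against 7.37 and 9.58 FPKM in wild-type cells, with LPS. Anti-IgM gave Cenpa values of 41.3 and 40.3 FPKM in Trpm5-/- cells, against 29.8 and 23.4 FPKM in wild-type cells. Unstimulated, Cenpa stood at 46.2 and 47 FPKM in Trpm5-/- cells, against 34.4 and 30.2 FPKM in wild-type cells. Cenpa was higher in both Trpm5-/- libraries than in either wild-type library in all 3 conditions. Cenpa gave a log2 difference of 0.58 ± 0.08 (limma adjusted p = 0.000891), averaged over the conditions. Within single conditions Cenpa passed the test under LPS (0.62 ± 0.13, limma adjusted p = 0.0327) and anti-IgM (0.61 ± 0.13, limma adjusted p = 0.0355). With LPS Cenpe, a kinesin that carries chromosomes to the spindle equator, stood at 0.763 and 0.832 FPKM in Trpm5-/- cells, against 0.492 and 0.641 FPKM in wild-type cells. After anti-IgM treatment Cenpe read 1.82 and 1.86 FPKM in Trpm5-/- cells, against 1.49 and 1.65 FPKM in wild-type cells. Without stimulus Cenpe read 4.67 and 4.78 FPKM in Trpm5-/- cells, against 2.63 and 3.23 FPKM in wild-type cells. No wild-type Cenpe value reached a Trpm5-/- value of the same condition. Cenpe rose by 0.30 ± 0.09 (limma adjusted p = 0.0402) on the log2 scale, averaged over conditions. The level of Nuf2, a subunit of the NDC80 complex that grips microtubules, was 3.45 and 4.9 FPKM in Trpm5-/- cells, against 1.81 and 2.77 FPKM in wild-type cells, after LPS. After anti-IgM Nuf2 was at 5.61 and 4.49 FPKM in Trpm5-/- cells, against 2.13 and 2.7 FPKM in wild-type cells, and unstimulated at 9.66 and 7.54 FPKM in Trpm5-/- cells, against 4.91 and 5.06 FPKM in wild-type cells. The Nuf2 values of the genotypes did not overlap in any condition. Nuf2 averaged a log2 difference of 0.72 ± 0.12 (limma adjusted p = 0.00293). LPS-treated cells gave Spc24, which anchors that complex to the kinetochore, values of 7.85 and 8.99 FPKM in Trpm5-/- cells, against 5.71 and 5.66 FPKM in wild-type cells. Under anti-IgM Spc24 read 10.2 and 7.51 FPKM in Trpm5-/- cells, against 8.85 and 5.38 FPKM in wild-type cells. In unstimulated cells Spc24 read 14.4 and 17.6 FPKM in Trpm5-/- cells, against 8.88 and 7.44 FPKM in wild-type cells. Under anti-IgM the Spc24 values of the genotypes overlapped, and under LPS and unstimulated conditions both Trpm5-/- values were the higher ones. For Spc24 the log2 difference averaged 0.56 ± 0.12 (limma adjusted p = 0.0113). Spc24 was called under unstimulated conditions (0.89 ± 0.21, limma adjusted p = 0.0359).

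The other 2 subunits of the complex were not called. Ndc80, its namesake and microtubule-binding subunit, read 1.09 and 1.91 FPKM in Trpm5-/- cells, against 2 and 2.02 FPKM in wild-type cells, with LPS. After anti-IgM treatment Ndc80 read 7.9 and 8.47 FPKM in Trpm5-/- cells, against 8.22 and 7.83 FPKM in wild-type cells, and unstimulated 29.4 and 20.9 FPKM in Trpm5-/- cells, against 23.4 and 25.7 FPKM in wild-type cells. Ndc80 was the 1 gene whose Trpm5-/- values lay below the wild-type values in a condition, LPS, and it overlapped in the others (average log2 difference -0.08 ± 0.11, limma adjusted p = 0.658). Its values are given in full because of its response to stimulation, a choice made after they were seen. Spc25, the partner of Spc24, ran from 11.7 to 27.6 FPKM (average log2 difference 0.40 ± 0.13, limma adjusted p = 0.0647). Cenpf, a large outer kinetochore protein, ran from 0.321 to 1.74 FPKM and Knstrn, an adaptor of spindle and kinetochore, from 1.53 to 4.95 FPKM. Neither was called on average (limma adjusted p = 0.162 for Cenpf and 0.798 for Knstrn).

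All 6 genes of chromosome structure were called higher in Trpm5-/- cells on average. Top2a, the topoisomerase that untangles sister chromatids, read 13.8 and 17 FPKM in Trpm5-/- cells, against 9.69 and 9.1 FPKM in wild-type cells, with LPS. Anti-IgM gave Top2a values of 17.5 and 14.4 FPKM in Trpm5-/- cells, against 8.21 and 8.66 FPKM in wild-type cells. Unstimulated, Top2a stood at 25.1 and 24.2 FPKM in Trpm5-/- cells, against 13 and 14.9 FPKM in wild-type cells. Top2a was higher in both Trpm5-/- libraries than in either wild-type library in all 3 conditions. Top2a gave a log2 difference of 0.76 ± 0.07 (limma adjusted p = 0.000120), averaged over the conditions. Within single conditions Top2a passed the test under LPS (0.65 ± 0.13, limma adjusted p = 0.0207) and anti-IgM (0.84 ± 0.13, limma adjusted p = 0.00603) and unstimulated conditions (0.78 ± 0.13, limma adjusted p = 0.00829). With LPS Ncapg, a condensin I subunit, stood at 6.26 and 6.75 FPKM in Trpm5-/- cells, against 3.39 and 2.83 FPKM in wild-type cells. After anti-IgM treatment Ncapg read 5.4 and 3.82 FPKM in Trpm5-/- cells, against 3.6 and 2.42 FPKM in wild-type cells. Without stimulus Ncapg read 7.55 and 8.78 FPKM in Trpm5-/- cells, against 5.34 and 5.51 FPKM in wild-type cells. No wild-type Ncapg value reached a Trpm5-/- value of the same condition. Ncapg rose by 0.62 ± 0.11 (limma adjusted p = 0.00349) on the log2 scale, averaged over conditions. Ncapg also passed under LPS (0.87 ± 0.18, limma adjusted p = 0.0301). The level of Ncapd2, another condensin I subunit, was 4.82 and 5.82 FPKM in Trpm5-/- cells, against 4.12 and 5.95 FPKM in wild-type cells, after LPS. After anti-IgM Ncapd2 was at 7.85 and 8.08 FPKM in Trpm5-/- cells, against 6.32 and 5.49 FPKM in wild-type cells, and unstimulated at 16.9 and 18 FPKM in Trpm5-/- cells, against 12.6 and 13.1 FPKM in wild-type cells. The Ncapd2 values overlapped between genotypes under LPS and were higher in Trpm5-/- cells under anti-IgM and unstimulated conditions. Ncapd2 averaged a log2 difference of 0.29 ± 0.09 (limma adjusted p = 0.0497). LPS-treated cells gave Ncaph, the condensin I subunit that bridges the SMC pair, values of 11.5 and 7.03 FPKM in Trpm5-/- cells, against 6.55 and 5.74 FPKM in wild-type cells. Under anti-IgM Ncaph read 10.6 and 8.5 FPKM in Trpm5-/- cells, against 6.34 and 5.51 FPKM in wild-type cells. In unstimulated cells Ncaph read 16.1 and 16.8 FPKM in Trpm5-/- cells, against 8.05 and 7.6 FPKM in wild-type cells. In each condition both Ncaph values of Trpm5-/- cells lay above both of wild-type cells. For Ncaph the log2 difference averaged 0.69 ± 0.11 (limma adjusted p = 0.00238). Ncaph was called under unstimulated conditions (0.98 ± 0.19, limma adjusted p = 0.0172). Mki67, which encodes the proliferation marker Ki-67 that coats mitotic chromosomes, read 1.57 and 2.58 FPKM in Trpm5-/- cells, against 1.61 and 1.25 FPKM in wild-type cells, with LPS. Anti-IgM gave Mki67 values of 2.73 and 2.92 FPKM in Trpm5-/- cells, against 2.28 and 2.2 FPKM in wild-type cells. Unstimulated, Mki67 stood at 6.88 and 7.01 FPKM in Trpm5-/- cells, against 4.21 and 4.59 FPKM in wild-type cells. Mki67 values of the genotypes were apart under anti-IgM and unstimulated conditions and overlapped under LPS. Mki67 gave a log2 difference of 0.37 ± 0.10 (limma adjusted p = 0.0305), averaged over the conditions. With LPS Cdca2, which brings a phosphatase to chromosomes at mitotic exit, stood at 3.6 and 3.94 FPKM in Trpm5-/- cells, against 3.44 and 3.58 FPKM in wild-type cells. After anti-IgM treatment Cdca2 read 4.29 and 3.99 FPKM in Trpm5-/- cells, against 3.36 and 2.56 FPKM in wild-type cells. Without stimulus Cdca2 read 6.21 and 7.73 FPKM in Trpm5-/- cells, against 3.4 and 3.59 FPKM in wild-type cells. No wild-type Cdca2 value reached a Trpm5-/- value of the same condition. Cdca2 rose by 0.43 ± 0.09 (limma adjusted p = 0.00833) on the log2 scale, averaged over conditions. Cdca2 also passed under unstimulated conditions (0.82 ± 0.15, limma adjusted p = 0.0140).

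Of the 7 spindle motor and spindle assembly genes, 6 were called on average, 3 unstimulated, 1 with LPS and none with anti-IgM. With anti-IgM 3 had an unadjusted p under 0.05 by limma and no other tool was run. The share of all genes under that unadjusted p is not given here. The level of Kif11, the kinesin that pushes the spindle poles apart, was 4.89 and 5.19 FPKM in Trpm5-/- cells, against 3.32 and 4.49 FPKM in wild-type cells, after LPS. After anti-IgM Kif11 was at 6.71 and 5.76 FPKM in Trpm5-/- cells, against 6.25 and 5.48 FPKM in wild-type cells, and unstimulated at 14.2 and 11.1 FPKM in Trpm5-/- cells, against 5.33 and 7.02 FPKM in wild-type cells. The Kif11 values overlapped between genotypes under anti-IgM and were higher in Trpm5-/- cells under LPS and unstimulated conditions. Kif11 averaged a log2 difference of 0.44 ± 0.10 (limma adjusted p = 0.0159). Taken alone, unstimulated conditions (0.93 ± 0.18, limma adjusted p = 0.0157) showed a called Kif11 difference. LPS-treated cells gave Kif2c, a kinesin that takes microtubules apart at centromeres, values of 1.91 and 2.22 FPKM in Trpm5-/- cells, against 1.38 and 2 FPKM in wild-type cells. Under anti-IgM Kif2c read 3.44 and 3.57 FPKM in Trpm5-/- cells, against 1.36 and 2.53 FPKM in wild-type cells. In unstimulated cells Kif2c read 5.46 and 6.67 FPKM in Trpm5-/- cells, against 3.86 and 3.6 FPKM in wild-type cells. Under LPS the Kif2c values of the genotypes overlapped, and under anti-IgM and unstimulated conditions both Trpm5-/- values were the higher ones. For Kif2c the log2 difference averaged 0.47 ± 0.12 (limma adjusted p = 0.0232). Kif20a, a kinesin of the anaphase midzone, read 5.8 and 4.95 FPKM in Trpm5-/- cells, against 3.35 and 2.63 FPKM in wild-type cells, with LPS. Anti-IgM gave Kif20a values of 6.2 and 4.94 FPKM in Trpm5-/- cells, against 3.7 and 4.04 FPKM in wild-type cells. Unstimulated, Kif20a stood at 9.07 and 9.85 FPKM in Trpm5-/- cells, against 5.73 and 5.51 FPKM in wild-type cells. Kif20a was higher in both Trpm5-/- libraries than in either wild-type library in all 3 conditions. Kif20a gave a log2 difference of 0.59 ± 0.09 (limma adjusted p = 0.00153), averaged over the conditions. Within single conditions Kif20a passed the test under LPS (0.68 ± 0.15, limma adjusted p = 0.0351) and unstimulated conditions (0.66 ± 0.15, limma adjusted p = 0.0311). With LPS Tpx2, which activates Aurora A and nucleates spindle microtubules, stood at 4.1 and 4.6 FPKM in Trpm5-/- cells, against 2.63 and 2.67 FPKM in wild-type cells. After anti-IgM treatment Tpx2 read 3.73 and 5.28 FPKM in Trpm5-/- cells, against 3.43 and 3.51 FPKM in wild-type cells. Without stimulus Tpx2 read 9.77 and 7.71 FPKM in Trpm5-/- cells, against 4.61 and 3.83 FPKM in wild-type cells. No wild-type Tpx2 value reached a Trpm5-/- value of the same condition. Tpx2 rose by 0.58 ± 0.10 (limma adjusted p = 0.00345) on the log2 scale, averaged over conditions. Tpx2 also passed under unstimulated conditions (0.90 ± 0.17, limma adjusted p = 0.0159). The level of Nusap1, a microtubule bundler near chromosomes, was 6.18 and 3.45 FPKM in Trpm5-/- cells, against 2.89 and 1.93 FPKM in wild-type cells, after LPS. After anti-IgM Nusap1 was at 10.5 and 6.72 FPKM in Trpm5-/- cells, against 7.29 and 5.92 FPKM in wild-type cells, and unstimulated at 21.5 and 18.4 FPKM in Trpm5-/- cells, against 11 and 11.3 FPKM in wild-type cells. The Nusap1 values overlapped between genotypes under anti-IgM and were higher in Trpm5-/- cells under LPS and unstimulated conditions. Nusap1 averaged a log2 difference of 0.61 ± 0.15 (limma adjusted p = 0.0181). LPS-treated cells gave Hmmr, a spindle and hyaluronan-binding protein, values of 3.53 and 2.63 FPKM in Trpm5-/- cells, against 2.74 and 2.04 FPKM in wild-type cells. Under anti-IgM Hmmr read 2.94 and 3.22 FPKM in Trpm5-/- cells, against 1.79 and 2.04 FPKM in wild-type cells. In unstimulated cells Hmmr read 5.89 and 7.05 FPKM in Trpm5-/- cells, against 3.84 and 3.8 FPKM in wild-type cells. Under LPS the Hmmr values of the genotypes overlapped, and under anti-IgM and unstimulated conditions both Trpm5-/- values were the higher ones. For Hmmr the log2 difference averaged 0.46 ± 0.10 (limma adjusted p = 0.00984). Kif4, a chromosome-arm kinesin, ran from 1.07 to 3.13 FPKM and was not called (average log2 difference 0.43 ± 0.14, limma adjusted p = 0.0698).

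Of the 5 genes of the midzone and cytokinesis, 4 were called on average. Prc1, which crosslinks the midzone microtubules, read 9.8 and 9.15 FPKM in Trpm5-/- cells, against 6.83 and 6.61 FPKM in wild-type cells, with LPS. Anti-IgM gave Prc1 values of 11.5 and 9.26 FPKM in Trpm5-/- cells, against 6.62 and 6.32 FPKM in wild-type cells. Unstimulated, Prc1 stood at 17.2 and 16.9 FPKM in Trpm5-/- cells, against 9.64 and 9.71 FPKM in wild-type cells. Prc1 was higher in both Trpm5-/- libraries than in either wild-type library in all 3 conditions. Prc1 gave a log2 difference of 0.60 ± 0.07 (limma adjusted p = 0.000253), averaged over the conditions. Within single conditions Prc1 passed the test under anti-IgM (0.60 ± 0.11, limma adjusted p = 0.0180) and unstimulated conditions (0.76 ± 0.11, limma adjusted p = 0.00621). With LPS Kif23, the kinesin of the centralspindlin complex, stood at 2.6 and 2.56 FPKM in Trpm5-/- cells, against 2.51 and 2.65 FPKM in wild-type cells. After anti-IgM treatment Kif23 read 5.82 and 4.33 FPKM in Trpm5-/- cells, against 3.41 and 3.41 FPKM in wild-type cells. Without stimulus Kif23 read 9.45 and 11.2 FPKM in Trpm5-/- cells, against 4.77 and 5.68 FPKM in wild-type cells. Both Trpm5-/- Kif23 values lay above both wild-type ones under anti-IgM and unstimulated conditions, while the genotypes overlapped under LPS. Kif23 rose by 0.44 ± 0.09 (limma adjusted p = 0.00863) on the log2 scale, averaged over conditions. Kif23 also passed under unstimulated conditions (0.86 ± 0.16, limma adjusted p = 0.0129). The level of Racgap1, its GTPase-activating partner, was 7.08 and 7.77 FPKM in Trpm5-/- cells, against 4.66 and 4.08 FPKM in wild-type cells, after LPS. After anti-IgM Racgap1 was at 17.3 and 13.5 FPKM in Trpm5-/- cells, against 11.7 and 11.8 FPKM in wild-type cells, and unstimulated at 22.3 and 19.4 FPKM in Trpm5-/- cells, against 13.8 and 14.3 FPKM in wild-type cells. The Racgap1 values of the genotypes did not overlap in any condition. Racgap1 averaged a log2 difference of 0.51 ± 0.08 (limma adjusted p = 0.00153). Taken alone, LPS (0.65 ± 0.13, limma adjusted p = 0.0234) and unstimulated conditions (0.53 ± 0.13, limma adjusted p = 0.0416) showed a called Racgap1 difference. LPS-treated cells gave Ect2, the exchange factor that switches on RhoA at the cleavage furrow, values of 2.19 and 2.55 FPKM in Trpm5-/- cells, against 2.08 and 2.07 FPKM in wild-type cells. Under anti-IgM Ect2 read 3.73 and 4.82 FPKM in Trpm5-/- cells, against 3.27 and 1.98 FPKM in wild-type cells. In unstimulated cells Ect2 read 6.74 and 6.94 FPKM in Trpm5-/- cells, against 4.97 and 2.91 FPKM in wild-type cells. In each condition both Ect2 values of Trpm5-/- cells lay above both of wild-type cells. For Ect2 the log2 difference averaged 0.46 ± 0.13 (limma adjusted p = 0.0389). Anln, a scaffold of the contractile ring, ran from 0.328 to 2.54 FPKM and was not called (average log2 difference 0.43 ± 0.15, limma adjusted p = 0.0829).

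The calls on average for Ccnb2, Cenpe, Ect2, Kif2c, Melk, Mki67, Ncapd2 and Nusap1 were lost under at least 1 alternative. For each of the 8, leaving out a single library was among those alternatives, and their highest adjusted p-values lay between 0.0535 for Nusap1 and 0.119 for Ncapd2.

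**Figure D4:**
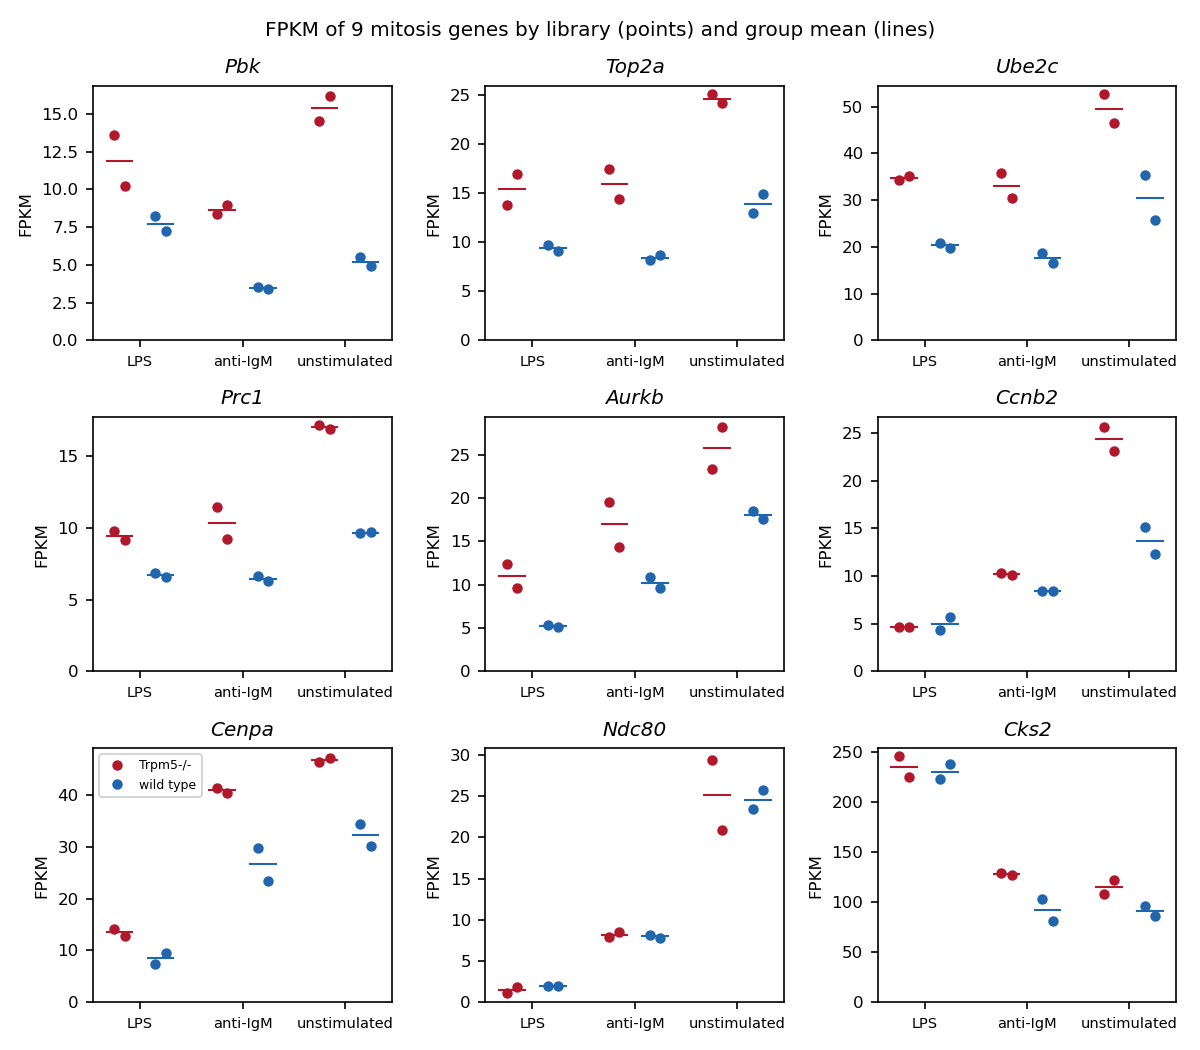
FPKM (y axis, linear, from 0) of 9 mitosis genes in every library (points) with group means (lines), Trpm5-/- in red beside wild type in blue, with LPS, with anti-IgM and unstimulated. Pbk, Top2a, Ube2c, Prc1 and Aurkb are apart in all 3 conditions, Ndc80 is lower with both stimuli in both genotypes, and Cks2 is highest with LPS.

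After 4 h of LPS most mitosis genes were lower than in unstimulated cells in both genotypes, and after anti-IgM most were in Trpm5-/- cells and 21 of 45 in wild-type cells. With LPS 37 of 45 were called lower and 1 higher in Trpm5-/- cells, and 29 lower and 2 higher in wild-type cells. Many genes responded to LPS, so the shares over all tested genes were high: 33.8% were called lower and 34.8% higher in Trpm5-/- cells, and 34.4% lower and 35.0% higher in wild-type cells. With anti-IgM 32 were called lower in Trpm5-/- cells (23.0% of all genes) and 21 in wild-type cells (20.9%). None was called higher with anti-IgM, against 26.9% of all genes in Trpm5-/- cells and 27.7% in wild-type cells. Among the mitosis genes limma gave no such rise with an unadjusted p under 0.05 either and no other tool was run. The median log2 responses to LPS were -0.85 in Trpm5-/- cells and -0.55 in wild-type cells, and to anti-IgM -0.64 in Trpm5-/- cells and -0.44 in wild-type cells, with medians of all genes between -0.02 and 0.02. A total of 28 genes were called lower after LPS in both genotypes, 19 after anti-IgM in both, and 16 after both stimuli in both genotypes. The shares of all genes called in these combinations are not given here, so the overlaps are only descriptive. Responses of the 2 genotypes have different controls, but both stimuli share the unstimulated libraries of a genotype. Without Trpm5-/- anti-IgM library 2, the anti-IgM count in Trpm5-/- cells was 19.

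**Figure D5:**
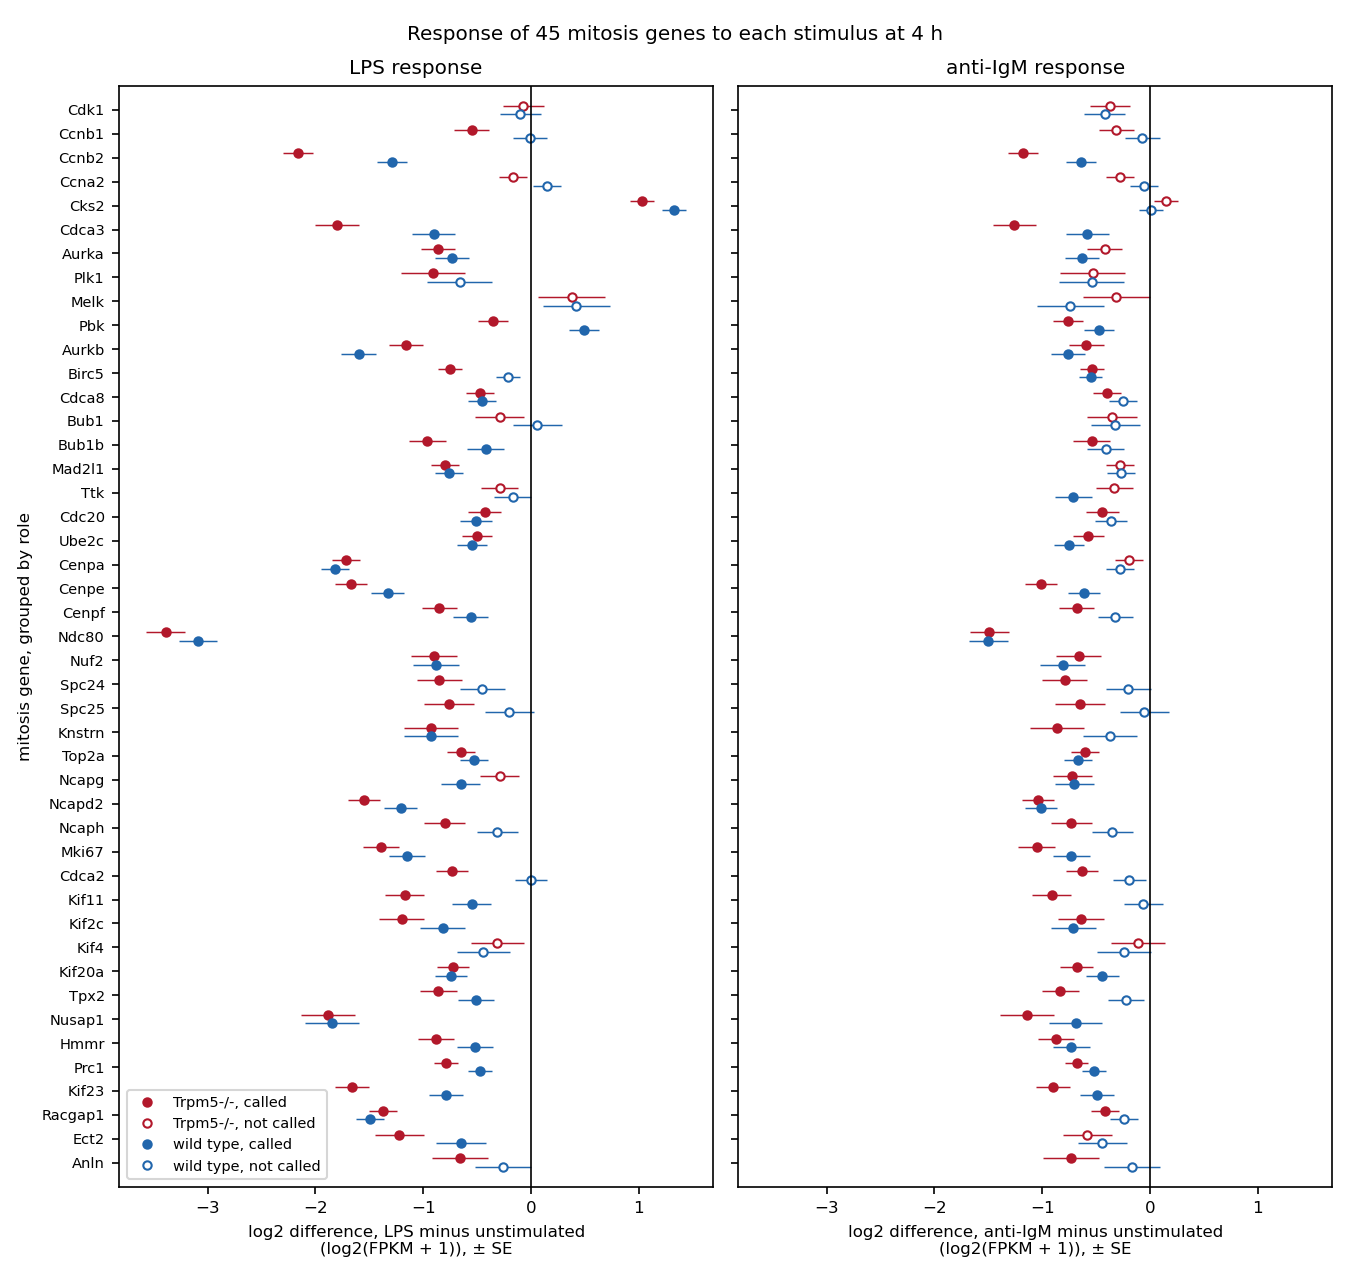
Log2 response to LPS (left) and to anti-IgM (right), stimulated minus unstimulated, of each mitosis gene (rows) in Trpm5-/- cells (red, upper point) and wild-type cells (blue, lower point), with standard errors as bars and called responses filled. Most points lie left of 0, Ndc80 is farthest left at -3.39 and -3.09 with LPS, and Cks2 lies right of 0 with LPS.

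Ndc80 had the largest fall with LPS, by 3.39 ± 0.18 in Trpm5-/- cells and by 3.09 ± 0.18 in wild-type cells (limma adjusted p = 6.45e-08 and 1.26e-07). Its mean was 1.5 FPKM with LPS against 25.2 FPKM unstimulated in Trpm5-/- cells, and 2.01 FPKM with LPS against 24.6 FPKM unstimulated in wild-type cells. With anti-IgM Ndc80 fell by 1.49 ± 0.18 in Trpm5-/- cells and by 1.5 ± 0.18 in wild-type cells. Of the other subunits of its complex, Nuf2 changed by -0.90 ± 0.21 in Trpm5-/- cells and -0.88 ± 0.21 in wild-type cells with LPS, and Spc25 by -0.76 ± 0.23 in Trpm5-/- cells and -0.20 ± 0.23 in wild-type cells, the last of these not called. Ccnb2 fell with LPS by 2.16 ± 0.14 in Trpm5-/- cells and by 1.29 ± 0.14 in wild-type cells, while Ccnb1 changed by -0.55 ± 0.16 in Trpm5-/- cells and by -0.01 ± 0.16, not called, in wild-type cells. Cdk1 was not called after either stimulus in either genotype. Nusap1, Cenpa, Cenpe, Ncapd2 and Racgap1 fell by over 1.2 with LPS in both genotypes, and Cenpa was not called with anti-IgM in either (limma adjusted p = 0.276 in Trpm5-/- cells and 0.114 in wild-type cells).

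Cks2 rose with LPS in both genotypes, by 1.03 ± 0.11 in Trpm5-/- cells and by 1.33 ± 0.11 in wild-type cells (limma adjusted p = 9.41e-06 and 1.21e-06). In each genotype its LPS values lay above its unstimulated values, and with anti-IgM it was not called. The Pbk response to LPS was of opposite sign in the genotypes, -0.35 ± 0.14 in Trpm5-/- cells (limma adjusted p = 0.0496) and 0.49 ± 0.14 in wild-type cells (limma adjusted p = 0.0115). The Trpm5-/- call for Pbk held under 4 of 21 settings, and the wild-type call under 18. It was lost in wild-type cells without wild-type LPS library 1, without wild-type unstimulated library 2, and with all libraries scaled to an equal FPKM sum.

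Whether the genotypes differed in their responses was tested by the interaction of genotype and stimulus. No mitosis gene was called by limma for LPS or for anti-IgM, where 0.102% and 0.0278% of all genes were, and 9 and 4 of the 45 had an unadjusted p under 0.05. No other tool was run. For LPS 35 of 45 interaction terms were negative with a median of -0.30, and for anti-IgM 30 were with a median of -0.14. The medians of all genes were -0.02 for LPS and -0.04 for anti-IgM. The shares of all genes with a negative term or an unadjusted p under 0.05 are not given here. The counts among the 45 therefore do not show a joint difference in response. The smallest adjusted p-values for LPS were those of Ccnb2 (-0.87 ± 0.19, limma adjusted p = 0.182), Pbk (-0.84 ± 0.20, limma adjusted p = 0.210) and Kif23 (-0.86 ± 0.22, limma adjusted p = 0.240). The opposite signs of Pbk are therefore not shown to differ by the test. The larger medians of the responses in Trpm5-/- cells and the larger genotype difference in unstimulated cells rest on the same libraries.

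A list of 88 further mitosis genes in the files, 85 of them tested, had a lower median difference. Of the 85, 7 (8.24%) were called higher in Trpm5-/- cells with LPS, where 1.82% of all tested genes were, 3 (3.53%) with anti-IgM (1.91% of all), 12 (14.1%) unstimulated (4.45%) and 33 (38.8%) on average (10.2%). The anti-IgM share was near that of all genes, and 1 gene was called lower on average. The median average difference was 0.25, against 0.48 for the 45 genes and 0.01 for all tested genes. The 4 of smallest p on average were Stmn1, a microtubule-destabilizing protein (0.62 ± 0.05, limma adjusted p = 2.81e-05), Cks1b, the paralog of Cks2 (0.51 ± 0.06), Hmgb2, a chromatin protein abundant in cycling cells (0.33 ± 0.04), and Cdca5, which protects cohesion (0.76 ± 0.10). Stmn1 read 90.7 and 86.6 FPKM in Trpm5-/- cells, against 53.8 and 63.8 FPKM in wild-type cells, with LPS. Anti-IgM gave Stmn1 values of 108 and 104 FPKM in Trpm5-/- cells, against 74.6 and 72.4 FPKM in wild-type cells, and unstimulated cells 168 and 160 FPKM in Trpm5-/- cells, against 101 and 91.4 FPKM in wild-type cells. The genotypes did not overlap for Stmn1 in any condition.

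DNA replication genes, which act in S phase, were called higher in Trpm5-/- cells mainly in the average difference. Of 56 tested, 28 were called higher on average (10.2% of all genes), 9 (16.1%) unstimulated (4.45%), 4 (7.14%) with LPS (1.82%) and 1 (1.79%) with anti-IgM (1.91%), the last a share like that of all genes. Rrm2, the ribonucleotide reductase subunit that limits nucleotide supply, rose by 0.97 ± 0.05 on average (limma adjusted p = 1.71e-06), Pold1, the catalytic subunit of DNA polymerase delta, by 0.58 ± 0.06, its clamp Pcna by 0.20 ± 0.03 and the helicase subunit Mcm7 by 0.26 ± 0.04. Rrm2 read 26.2 and 24.7 FPKM in Trpm5-/- cells, against 13.8 and 14.3 FPKM in wild-type cells, with LPS. Under anti-IgM Rrm2 read 20.4 and 20.8 FPKM in Trpm5-/- cells, against 9.12 and 10.3 FPKM in wild-type cells, and unstimulated 43.4 and 44.4 FPKM in Trpm5-/- cells, against 20.3 and 19.7 FPKM in wild-type cells. The genotypes did not overlap for Rrm2 in any condition. With LPS 13 (23.2%) of the replication genes were called higher and 18 (32.1%) lower in Trpm5-/- cells, where 34.8% and 33.8% of all genes were. In wild-type cells 16 (28.6%) were called higher and 22 (39.3%) lower, where 35.0% and 34.4% of all genes were, so these shares were not far from those of all genes. With LPS the 45 mitosis genes had 1 called higher and 37 lower in Trpm5-/- cells, and 2 higher and 29 lower in wild-type cells. The 85 further mitosis genes had 14 higher and 43 lower in Trpm5-/- cells, and 18 higher and 36 lower in wild-type cells.

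Among 23 tested regulators of these genes, the DREAM and MuvB subunits, MYB factors, FOXM1 and E2F factors, 4 (17.4%) were called higher and 1 (4.35%) lower in Trpm5-/- cells on average, against 10.2% and 5.88% of all genes, and the median difference was 0.03. Mybl2, which encodes B-MYB, rose by 0.56 ± 0.07 (limma adjusted p = 0.000358), Tfdp1, the dimer partner of E2F factors, by 0.41 ± 0.05, and E2f1 by 0.45 ± 0.09. Rbl2, which encodes the p130 subunit of DREAM, fell by 0.32 ± 0.08 (limma adjusted p = 0.0159). Mybl2 read 33.2 and 30.8 FPKM in Trpm5-/- cells, against 22.2 and 21 FPKM in wild-type cells, with LPS. Under anti-IgM Mybl2 read 4.7 and 4.39 FPKM in Trpm5-/- cells, against 2.29 and 2.62 FPKM in wild-type cells. Unstimulated Mybl2 was at 4.83 and 5.25 FPKM in Trpm5-/- cells, against 3.55 and 3.2 FPKM in wild-type cells. With LPS Mybl2 rose by 2.45 ± 0.11 in Trpm5-/- cells and by 2.37 ± 0.11 in wild-type cells, while most mitosis genes fell. Foxm1, named after its values were seen, was not called in any genotype difference. Its log2 difference was -0.34 ± 0.19 with LPS (limma adjusted p = 0.421), -0.57 ± 0.19 with anti-IgM (limma adjusted p = 0.126), 0.40 ± 0.19 unstimulated (limma adjusted p = 0.260) and -0.17 ± 0.11 on average (limma adjusted p = 0.341). The Foxm1 interaction was -0.98 ± 0.27 for anti-IgM (limma adjusted p = 0.449) and -0.74 ± 0.27 for LPS (limma adjusted p = 0.388), neither of them called.

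Some markers of cell types and states also differed between genotypes on average, where 10.2% of all genes were called higher and 5.88% lower. Of the marginal zone markers, all 12 were tested and 6 were called higher in Trpm5-/- cells on average and none lower. Those called were Cd9, Plxnd1, Cd36, Dtx1, Mzb1 and S1pr3. Cr2 (-0.11 ± 0.04), Notch2 (-0.14 ± 0.05) and Cd1d1 (-0.14 ± 0.12) were lower on average without a call (limma adjusted p = 0.101, 0.108 and 0.448). The summed FPKM of the 12 ran from 1029 to 1773 FPKM in Trpm5-/- libraries and from 815 to 1422 FPKM in wild-type libraries. Pan-B markers had none called higher and 7 of 10 lower, with sums from 8658 to 14836 FPKM in Trpm5-/- libraries and from 11778 to 17604 FPKM in wild-type libraries. Plasmablast markers had 4 of 9 higher and none lower, with Jchain at 0.93 ± 0.10 on the log2 scale. By condition 1 of the 9 was called higher with LPS (1.82% of all genes), 1 with anti-IgM (1.91%) and 3 unstimulated (4.45%). Sdc1, another of the 9, was lower without a call with LPS (-0.17 ± 0.19, limma adjusted p = 0.738). With anti-IgM it was also lower without a call (-0.58 ± 0.19, limma adjusted p = 0.129). The plasmablast sums ran from 373 to 671 FPKM in Trpm5-/- libraries and from 325 to 604 FPKM in wild-type libraries. Germinal centre markers, of which 7 of 10 were tested, had 4 lower and none higher, with Bcl6 at -0.60 ± 0.06, and sums from 30.2 to 66.5 FPKM in Trpm5-/- libraries and from 46.4 to 95.7 FPKM in wild-type libraries. Erythroid markers had 3 lower of 10 and 1 higher, a share of higher calls like that of all genes, with sums from 456 to 796 FPKM in Trpm5-/- libraries and from 678 to 1096 FPKM in wild-type libraries. Of the B cell precursor markers 3 of 10 were tested, none was called by limma on average or had an unadjusted p under 0.05, and 4 were at or under 0.1 FPKM in all libraries, with sums from 10.7 to 72.4 FPKM in Trpm5-/- libraries and from 8.37 to 75.8 FPKM in wild-type libraries. A level at or under 0.1 FPKM in all libraries was also found for 4 of the NK cell markers, 4 of the neutrophil markers and 1 of the T cell markers. T cell markers (2 of 9 tested, 1 lower) had sums from 18.9 to 61.6 FPKM in Trpm5-/- libraries and from 21.7 to 73.8 FPKM in wild-type libraries, and NK cell markers (2 of 8 tested, none called, none at an unadjusted p under 0.05) from 1.51 to 3.81 FPKM in Trpm5-/- libraries and from 0.419 to 4.69 FPKM in wild-type libraries. Macrophage and monocyte markers (5 of 10 tested, 1 higher and 2 lower) had sums from 22.6 to 26.6 FPKM in Trpm5-/- libraries and from 18.5 to 38.1 FPKM in wild-type libraries, and neutrophil markers (1 of 8 tested, not called) from 0 to 2.88 FPKM in Trpm5-/- libraries and from 0 to 0.640 FPKM in wild-type libraries. These ranges pool the conditions. Within every condition, both Trpm5-/- sums of marginal zone and of plasmablast markers lay above both wild-type sums. Both Trpm5-/- sums of pan-B, germinal centre and erythroid markers lay below both wild-type sums in every condition. With LPS the pan-B sums were 9929 and 9554 FPKM in Trpm5-/- cells, against 12315 and 12886 FPKM in wild-type cells. Both Trpm5-/- sums of T cell markers lay below both wild-type sums with LPS and with anti-IgM, and the genotypes overlapped unstimulated. The B cell precursor, NK cell, macrophage and monocyte, and neutrophil lists kept no single direction over the conditions. The part of these cell types and states in the mitosis results was not tested.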

How the data were processed

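RNA of marginal zone B cells was extracted with miRNeasy and turned into libraries with SMART-Seq HT and Nextera kits, per the labels' protocols. The values analysed are FPKM per gene symbol, deposited by the authors as 1 table per library. Per the submitters' processing notes the tools included Cufflinks 2.2.1, SAMtools 0.1.19, TopHat2 2.0.13 and Bowtie2 2.2.3, with the mm10 build. The tables state no unit, so FPKM was taken from the values and from Cufflinks. Median ratios between libraries were 1.008 to 1.015, so the deposited values were already scaled to each other.

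Symbols were kept that reached 1 FPKM in 2 or more libraries. A group-means model with moderated variances and a mean-variance trend was fitted to log2(FPKM + 1) with limma 3.58.1 in R 4.3.3, over all 12 libraries with 6 residual degrees of freedom, for 10 comparisons, and p-values were adjusted over all tested genes (Benjamini-Hochberg). Interactions were terms of the same fit. The procedure was tested on simulated data.

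The relative scaling factor of each library was judged from the steps between values under 0.3 FPKM. Whole fragments (within 0.01) were then recovered from the FPKM of each gene times that factor. The members and the companion lists were chosen with earlier results of these data known. A member has its value in every library if it was called in a genotype difference or an interaction, and others are given by range. From companion lists up to 4 genes are named by smallest p in the average difference, and from marker lists the example given is among these. Sdc1 and the marginal zone markers named were chosen after their values were seen. Promoters were RefSeq windows of GRCm38.p6, and the position of Trpm5 was from GENCODE (mm10). Alternatives changed the pseudocount, the filter, the scaling, the variance trend, the samples in the fit and the replicate term, and left out each library.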

Additional observations from a re-analysis of the deposited data

How the results depend on the processing

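Every named call kept its direction under all alternatives run. For the counts of 45 genes, fitting only the groups compared gave 0 with LPS (8 in the fit reported), 1 with anti-IgM (7) and 2 unstimulated (19) for the genotype difference; with so few libraries this fit has fewer degrees of freedom. The LPS count was 4 with no filter on low values and 3 after quantile normalization, and quantile normalization gave 20 for the LPS response of wild-type cells (31). Requiring a mean of at least 5 FPKM, which leaves 29 of the 45 genes, gave 25 for the LPS response in Trpm5-/- cells (38), and for anti-IgM 21 in Trpm5-/- cells (32) and 13 in wild-type cells (21). With each library left out in turn, the genotype counts ran from 0 to 7 with LPS, 1 to 10 with anti-IgM, 4 to 20 unstimulated and 28 to 34 on average. The LPS responses ran from 32 to 37 in Trpm5-/- cells and 24 to 33 in wild-type cells, the anti-IgM responses from 19 to 34 in Trpm5-/- cells and 16 to 21 in wild-type cells, and the interactions stayed at 0. The labels do not say whether replicate numbers pair the libraries. Deviations of same-numbered libraries from their group means correlated at -0.172 to 0.199 over 15 pairs of groups. These values cannot exclude pairing of some groups. A replicate block gave 7 with LPS, 8 with anti-IgM, 21 unstimulated and 37 on average for genotype. It gave 37 in Trpm5-/- cells and 31 in wild-type cells for the LPS response, 32 in Trpm5-/- cells and 22 in wild-type cells for the anti-IgM response, and 0 for the interactions. With all libraries scaled to an equal FPKM sum, the median response of all genes was -0.38 (LPS, Trpm5-/-), -0.36 (LPS, wild type) and -0.18 (anti-IgM, Trpm5-/-), against -0.02, -0.02 and -0.00 in the fit reported. Of the 384 fragment numbers recovered for these genes 4 were under 25, in Melk, Ndc80 and Anln, where counting error is largest. The cause of these moves was not tested.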
